A study of Ictalurus punctatus with 54 samples.

Results

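Channel catfish (Ictalurus punctatus) challenged with bacteria 24 h after copper exposure (Cu24h-24h) were compared with catfish challenged immediately after it (Cu0h-24h), and gill RNA of both groups was taken 24 h after challenge. The labels assign 12 of the 54 libraries of the study to these groups, 6 fish in each, and the comparison covered all 37586 transcripts listed per library. The fingerlings that the study split among its groups averaged 7.3 g. Fish of both groups compared here had received copper sulfate (CuSO4) and were then challenged with Flavobacterium. The other libraries came from untreated fish (Control), from uninfected fish sampled right after copper (Cu0h) or 24 h later (Cu24h), and from challenged fish of both schedules sampled at 1 h and 4 h (Cu0h-1h, Cu0h-4h, Cu24h-1h and Cu24h-4h). The study also describes fish challenged without copper, but none of the 54 libraries is labelled as such. By the labelled times the Cu24h-24h fish were 48 h past the start of copper at sampling and the Cu0h-24h fish 24 h. The schedule and the time since copper therefore cannot be told apart in this comparison. The labels give 2.1 mg/mL CuSO4 and F. columnare, and the methods of the study give mg/L and F. covae. The labels describe 24 h in copper for the Cu24h schedule. The methods describe static holding for 24 h after exposure in some passages and, in another, static copper followed by flowing fresh water and recovery. Whether the Cu24h schedule had an interval free of copper is therefore not settled. The study kept its fish in replicate tanks. Since no source used here links a fish to its tank, p-values measure the spread between sampled fish only.

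The fish gill is at the same time the site of gas exchange, a main organ of ion balance and a mucosal surface in direct contact with the water. Copper taken up at the gill interferes with sodium transport and promotes oxidative damage, and cells bind the metal with proteins such as metallothionein. Columnaris bacteria attach to the gill, spread over the lamellae and erode the epithelium, and the early host response includes mucus, lectins and inflammatory cytokines. The comparison asks whether gills challenged 24 h after the start of copper and gills challenged immediately after copper still differed 1 day into the infection.

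The transcripts carry Ensembl identifiers, and 0 of them could be paired with a gene name, so neither functions nor sequences are given and the label gill could not be checked against marker genes. In bulk tissue, fewer cells of a type and less RNA per cell cannot be told apart. The totals were 475411 to 1017409 counts in Cu24h-24h and 736773 to 1031603 in Cu0h-24h. Of the listed transcripts, 29391 had a count in at least 1 of the 12 fish, 9430 had a count in every fish, and 8373 passed the filter on low counts and were tested. The tested transcripts held 93.3% of all counts, and the 21018 counted but untested transcripts held the rest.

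Between the 2 schedules, 13 of the 8373 tested transcripts (0.155%) were differentially expressed genes (DEGs) at 24 h, defined here as transcripts with a false discovery rate (FDR) below 0.05 and a log2 fold change above 1 in size in edgeR's quasi-likelihood F-test. Of these, 4 were upregulated (0.0478%) and 9 were downregulated (0.107%) in Cu24h-24h relative to Cu0h-24h. The same 13 passed the FDR threshold alone, and 904 transcripts (10.8%) had an unadjusted p below 0.05. The fold changes had an SD of 0.493 on the log2 scale, a median of -0.02, and 423 transcripts (5.05%) beyond 2-fold, of which 190 were higher and 233 lower in Cu24h-24h. Single fish moved the count, which was 3 without Cu24h-24h replicate 3, 2 without Cu24h-24h replicate 4 and 28 without Cu0h-24h replicate 6. Without the filter on low counts the count was 255 of 29391 transcripts.

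**Figure D1:**
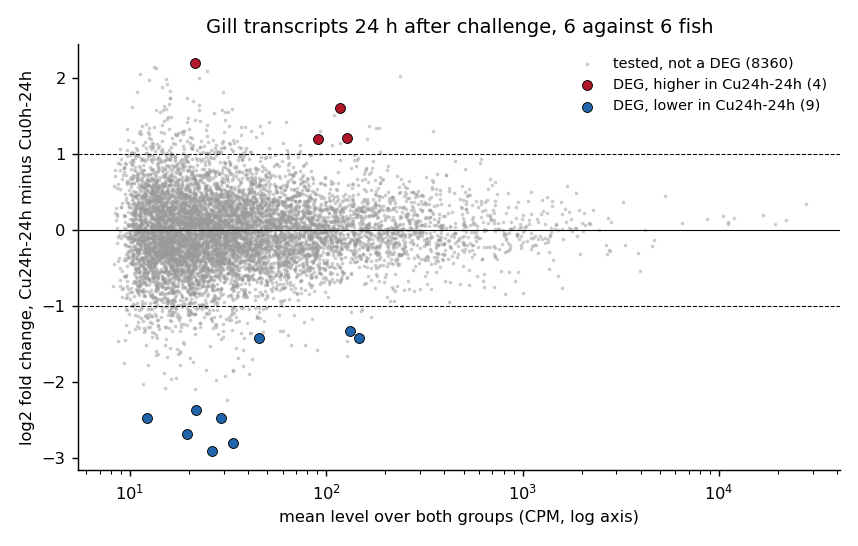
Log2 fold change of each tested transcript (Cu24h-24h minus Cu0h-24h, vertical axis) against its mean level in CPM (library-scaled counts, log axis). Grey points are tested transcripts that were not DEGs, red points the 4 upregulated and blue points the 9 downregulated DEGs, and the dashed lines mark 2-fold. The cloud narrows as the level rises, and the DEGs lie at mean levels from 12.1 to 146 CPM.

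Levels of single transcripts are given in CPM, which are counts scaled to a common library size over all 54 libraries and not corrected for transcript length. Named by identifier are the 2 largest rises and 2 largest falls of DEGs with separate ranges in the groups and an average of 20 CPM or more. Among the 13 DEGs, all 4 upregulated and 8 of the 9 downregulated transcripts had groups that did not overlap. Over all tested transcripts this was so for 86 (1.03%), 34 of them higher (0.406%) and 52 lower (0.621%) in Cu24h-24h.

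ENSIPUT00000016230 was the transcript with the largest upregulation. Its levels in the 6 Cu24h-24h fish were 36.6, 26.2, 45.6, 35.4, 24.4 and 45.0 CPM, and in the 6 Cu0h-24h fish 11.0, 6.71, 12.6, 0, 8.38 and 6.23 CPM. Every Cu24h-24h fish lay above every Cu0h-24h fish, and 1 Cu0h-24h fish had no count. The means were 35.5 ± 8.98 CPM and 7.48 ± 4.41 CPM (SD, n = 6 each), a log2 fold change of 2.20 (SE 0.40, edgeR FDR 0.0205). The edgeR FDR was 0.0564 to 0.0692 without any 1 of Cu24h-24h replicates 1, 3 and 4 or Cu0h-24h replicates 2 and 5. In the other groups the means were low in the Control fish (3.10 ± 2.48 CPM) and in Cu24h (2.16 ± 2.04 CPM), and reached 20.7 ± 9.81 CPM in Cu0h-1h and 19.8 ± 22.5 CPM in Cu0h-4h. The Cu24h-24h mean was thus the highest of the 9 groups, although 2 Cu0h-4h fish had 42.0 and 53.4 CPM. The log2 fold change of the schedules at 1 h was -1.40 (FDR 0.104), opposite in sign and not past the threshold. At 4 h this transcript did not pass the filter.

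ENSIPUT00000000694 was also upregulated in Cu24h-24h, with the second largest fold change of the rises that met the rule. The Cu24h-24h fish had 146, 142, 196, 225, 263 and 91.9 CPM, and the Cu0h-24h fish 51.8, 73.0, 36.0, 78.4, 79.6 and 28.0 CPM. The groups did not overlap, with a gap from 79.6 to 91.9 CPM between them. The means were 177 ± 62.5 and 57.8 ± 22.5 CPM (log2 fold change 1.61, SE 0.28, edgeR FDR 0.0173). Leaving out 1 of Cu24h-24h replicates 3, 4 and 5 or Cu0h-24h replicates 1 and 3 gave edgeR FDRs of 0.0502 to 0.0659. Both group means lay under the Control mean of 336 ± 90.3 CPM. The 6 Cu0h-24h fish all lay below the lowest Control fish, at 231 CPM, and so did the Cu24h-24h fish except that at 263 CPM. The fish of the Cu0h schedule averaged 295 ± 137 CPM without challenge, 105 ± 63.7 CPM at 1 h and 105 ± 57.7 CPM at 4 h, and those of the Cu24h schedule 281 ± 195, 170 ± 50.5 and 257 ± 124 CPM. The schedules also differed in this transcript at 4 h (log2 fold change 1.31, FDR 0.0328), and at 1 h the fold change of 0.74 did not pass the test (FDR 0.179).

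ENSIPUT00000035581 was the transcript with the largest downregulation and the smallest FDR. The Cu24h-24h fish had 3.14, 8.43, 0.970, 8.50, 6.09 and 11.7 CPM, and the Cu0h-24h fish 67.3, 30.2, 44.3, 39.7, 54.5 and 38.9 CPM. The highest Cu24h-24h fish reached less than the lowest Cu0h-24h fish, and the group means were 6.48 ± 3.93 and 45.8 ± 13.2 CPM (log2 fold change -2.90, SE 0.39, edgeR FDR 0.00344). It stayed a DEG whichever of the 12 fish was left out, with edgeR FDRs of 0.00280 to 0.0232. Of the 9 group means the Cu0h-24h mean was the highest, with 13.3 ± 12.6 CPM in the Control fish and 5.28 ± 4.02 to 31.0 ± 38.1 CPM in the other 7 groups. Single fish of earlier groups were as high, with 107 CPM in 1 Cu0h-1h fish and 60.8 CPM in 1 Cu0h fish. At 1 h its log2 fold change between the schedules was -0.97 (FDR 0.334), and at 4 h it did not pass the filter.

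ENSIPUT00000026052 was the second largest fall. Its levels in Cu24h-24h were 15.7, 7.49, 8.73, 4.25, 7.31 and 3.91 CPM, and in Cu0h-24h 130, 48.7, 70.3, 32.7, 52.0 and 20.2 CPM. The groups did not overlap, but the Cu0h-24h fish were spread over 20.2 to 130 CPM, and Cu0h-24h replicate 1 alone held the top of the range. The means were 7.90 ± 4.27 and 59.0 ± 38.8 CPM (log2 fold change -2.80, SE 0.46, edgeR FDR 0.0134). The edgeR FDR was 0.0596 without Cu24h-24h replicate 3 and 0.0538 without Cu24h-24h replicate 4. The Cu0h schedule was also high at 1 h, with 42.5 ± 16.3 CPM against 10.4 ± 8.51 CPM in Cu24h-1h (log2 fold change -1.95, FDR 0.00930). The level was 13.9 ± 11.4 CPM in Cu0h-4h, and at 4 h the transcript did not pass the filter. In every group of the Cu24h schedule its level averaged from 5.34 to 10.4 CPM, near the 5.60 ± 3.91 CPM of the Control fish.

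**Figure D2:**
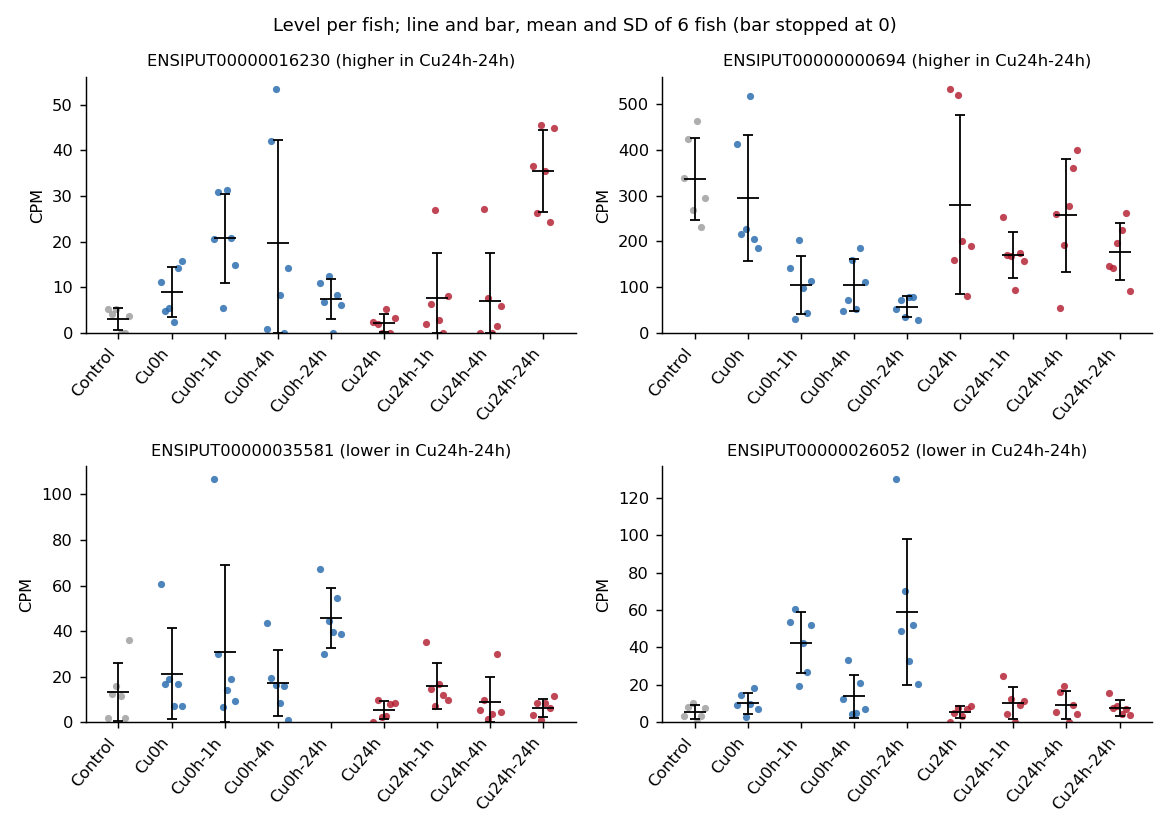
Level in CPM of the 4 named transcripts in each fish (points) of the 9 groups, with the mean and SD of 6 fish as a line and bar (the bar stops at 0). Grey marks the Control fish, blue the Cu0h schedule and red the Cu24h schedule. In each panel the 6 Cu24h-24h fish and the 6 Cu0h-24h fish occupy separate ranges.

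The other 2 upregulated transcripts had means of 178 ± 33.2 against 76.3 ± 16.1 CPM (log2 fold change 1.22, FDR 0.0134) and of 126 ± 27.0 against 56.2 ± 17.8 CPM (log2 fold change 1.20, FDR 0.0446). In both, the Control mean was higher than either group, at 649 ± 245 CPM and 175 ± 29.5 CPM. The other 7 downregulated transcripts had log2 fold changes from -1.33 to -2.68 and FDRs from 0.00460 to 0.0446. Their Cu0h-24h means ranged from 20.5 to 214 CPM and their Cu24h-24h means from 3.80 to 78.9 CPM. The most abundant of them was at 214 ± 31.9 CPM in Cu0h-24h, 78.9 ± 17.6 CPM in Cu24h-24h and 306 ± 50.6 CPM in the Control fish, so here it was the Cu24h-24h group that lay further from the Control level. The only DEG with overlapping groups was a fall from 48.9 ± 31.0 to 8.99 ± 5.92 CPM, with Cu0h-24h fish from 18.8 to 103 CPM and Cu24h-24h fish from 2.44 to 19.6 CPM.

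The log2 mean of Cu24h-24h was nearer to the Control mean than that of Cu0h-24h in 11 of the 13 DEGs, 3 of 4 upregulated and 8 of 9 downregulated. Over all 8373 tested transcripts this was so for 4619 (55.2%). The share differed with direction, at 64.2% of the 4368 transcripts that were lower in Cu24h-24h and 45.3% of the 4005 that were higher. Among transcripts whose groups did not overlap, it was 42 of 52 lower and 17 of 34 higher transcripts. The fold change of the higher transcripts in this set had a median of 0.87 on the log2 scale and that of the lower transcripts -0.92. The filter on low counts used the 24 h groups alone, and a transcript could pass it through the group where it was higher. The Control fish had no part in it. These shares can therefore differ with direction through the filter, and its part in them was not tested.

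The precision of the comparison differed with the level of a transcript. A 95% interval of the log2 fold change (limma-voom with library weights) lay wholly within 1 in either direction for 3422 transcripts (40.9%). With the tested transcripts divided by level into 4 classes of equal size, this share was 9.07% in the lowest class (8.20 to 16.7 CPM), then 26.8% and 49.6%, and 78.0% in the highest class (from 61.9 CPM). For the remaining transcripts the interval reached beyond 2-fold in at least 1 direction. Of the 100 most abundant transcripts, which held 33.1% of the counts, 94 had an interval wholly within 1 in either direction. The log2 fold changes of these 100 ran from -0.76 to 0.58, and 0 were DEGs. The DEGs were spread over the levels, with 1, 4, 3 and 5 of them from the lowest to the highest class.

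Of the 29391 counted transcripts, 2148 had a count in at least 1 Cu24h-24h fish and in 0 Cu0h-24h fish, and 2424 the reverse. No count in Cu0h-24h but counts in all 6 Cu24h-24h fish were found for 3 transcripts, and the reverse for 0. Their summed counts in Cu24h-24h were 12, 14 and 49, and none passed the filter on low counts, so none was tested. Scaled to the summed library size of each group, these sums were 4.82, 5.62 and 19.7 times a floor of 3 counts over the Cu0h-24h group. The floor leaves out the spread between fish, and the transcripts were picked for their lack of counts in Cu0h-24h. The ratios are therefore no strict lower bounds. The last transcript was uneven, with 1 to 21 counts per fish, and all 3 had counts in 10 to 17 of the 42 fish of the other groups. With counts in 4 or more fish of 1 group and none in the other, there were 63 transcripts in each direction.

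Of 4 values taken per fish, none differed past the adjusted threshold. At an equal depth of 352013 counts, 16540 ± 530 transcripts were detected in Cu24h-24h and 16388 ± 1432 in Cu0h-24h (SD, n = 6, exact permutation test, two-sided, p = 0.913, the same after adjustment). The total was 772201 ± 189501 against 907266 ± 110309 counts (exact permutation p = 0.16, adjusted 0.32). The 100 largest transcripts of each fish held 34.6 ± 2.03% against 33.0 ± 4.09% of the counts (exact permutation p = 0.4, adjusted 0.533). The distance to the Control mean, a root mean square difference in log2 CPM, was 1.36 ± 0.062 in Cu24h-24h and 1.44 ± 0.026 in Cu0h-24h. This difference had an exact permutation p of 0.0281 and an adjusted p of 0.112 over the 4 values tested, so it did not pass the threshold (924 splits, smallest possible p 0.00216). Without Cu24h-24h replicate 1 it did, with a difference of -0.0996 and an adjusted exact p of 0.0173. By fish the distances were 1.47, 1.40, 1.32, 1.32, 1.34 and 1.32 in Cu24h-24h and 1.40, 1.48, 1.46, 1.44, 1.43 and 1.44 in Cu0h-24h. Cu24h-24h replicates 1 and 2 thus fell within the Cu0h-24h range, and the other 4 fish below it. In the other copper groups the mean distance ran from 1.05 (Cu24h-1h) to 1.32 (Cu0h-1h), so the means of both 24 h groups were the highest. Single fish of other groups were as far away, with 1.54 in Cu0h-4h replicate 4. The distance was taken over the transcripts tested at 24 h. That set was filtered on counts of the 24 h groups alone, so it cannot rank groups of other times on equal terms.

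**Figure D3:**
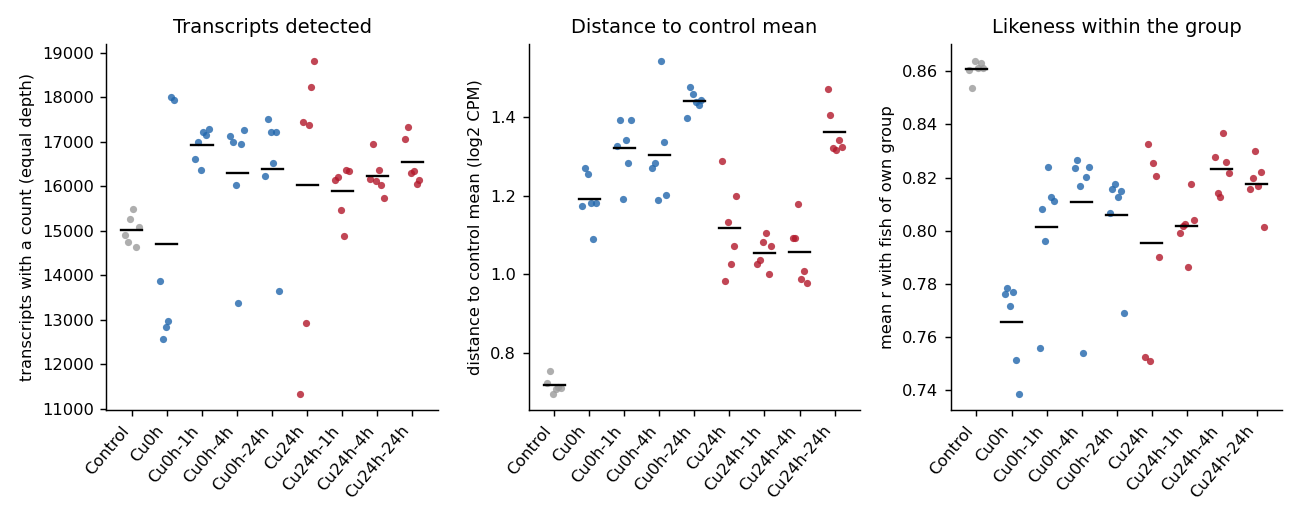
Values of each fish (points) with the group mean (line) for the 9 groups: transcripts with at least 1 count at 352013 counts per library, distance to the Control mean in log2 CPM, and mean correlation of log2 CPM with the other fish of its group. The middle and right panels cover the transcripts tested at 24 h. In the middle panel the means of both 24 h groups are the highest. In the left and right panels 1 Cu0h-24h fish stands below its group.

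Cu0h-24h replicate 6 stood apart from its group. It had 13633 detected transcripts where the other 5 had 16237 to 17502, its 100 largest transcripts held 40.6% of its counts against 28.9 to 33.5%, and its mean correlation with its group was 0.769 against 0.806 to 0.818. The first principal component of the 12 fish (20.2% of the variance) was mostly this fish, with a score of -94.1 against -14.7 to 15.9 in the other 11. On the second component (12.4%) the 6 Cu0h-24h fish scored 2.88 to 27.3, Cu24h-24h replicates 1 and 2 scored 9.24 and 9.29 among them, and the other 4 Cu24h-24h fish scored -42.3 to -18.9. The biological coefficient of variation was 0.420 in Cu24h-24h and 0.475 in Cu0h-24h, and 0.420 in Cu0h-24h without this fish. The mean correlation between fish of different schedules was 0.801, compared with 0.812 between fish of the same schedule.

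The same contrast of the schedules at the earlier times, in fish that share no library with the 24 h groups, gave far more DEGs. At every time after challenge the Cu24h schedule was also 24 h further past the start of copper than the Cu0h schedule. At 1 h there were 1002 DEGs among 6936 tested transcripts (14.4%), 482 upregulated (6.95%) and 520 downregulated (7.5%) in the Cu24h schedule. At 4 h there were 631 among 7791 (8.1%), 326 upregulated (4.18%) and 305 downregulated (3.91%), and 400 or 411 without Cu24h-4h replicate 4 or 6. Without challenge, Cu24h against Cu0h gave 14 DEGs among 6969 (0.201%), 8 upregulated (0.115%) and 6 downregulated (0.0861%), and 0 to 43 with 1 fish left out. In that comparison 672 transcripts (9.64%) had an unadjusted p below 0.05. The study, whose methods describe another way of counting reads, reports more DEGs for this contrast. Both uninfected groups were split in detected transcripts at equal depth. Cu0h replicates 1 to 4 had 12556 to 13866, and replicates 5 and 6 had 17998 and 17940. Cu24h replicates 1 and 3 had 11334 and 12927, and the others 17380 to 18826. The totals were split among the same fish. They were 463911 to 553390 counts in Cu0h replicates 1 to 4 and 1078334 and 995882 in replicates 5 and 6. In Cu24h they were 663680 and 496343 in replicates 1 and 3, and 977060 to 1190864 in the others. The part of this split in the counts was not tested. Groups that did not overlap made up 8.39% of tested transcripts at 1 h, 5.4% at 4 h and 0.631% without challenge. The SD of the log2 fold changes was 0.865 at 1 h, 0.735 at 4 h, 0.493 at 24 h and 0.669 without challenge. The correlation between fish of the same schedule exceeded that between schedules by 0.0692 at 1 h, 0.0470 at 4 h, 0.0113 at 24 h and 0.0218 without challenge. These correlations were all taken over the transcripts tested at 24 h, so they cannot rank the times on equal terms.

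The Cu24h-1h libraries were the shallowest of these groups, with 352013 to 741727 counts. With all libraries reduced to 352013 counts, 699 of 3988 transcripts (17.5%) were DEGs at 1 h, 444 of 4022 (11%) at 4 h and 1 of 4284 (0.0233%) at 24 h. The spread of fold changes kept its order at this depth, with SDs of 0.869, 0.709 and 0.440. The biological coefficient of variation, the spread between fish, was 0.485 in the 1 h fit, 0.471 in the 4 h fit, 0.449 in the 24 h fit and 0.630 in the uninfected fit.

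**Figure D4:**
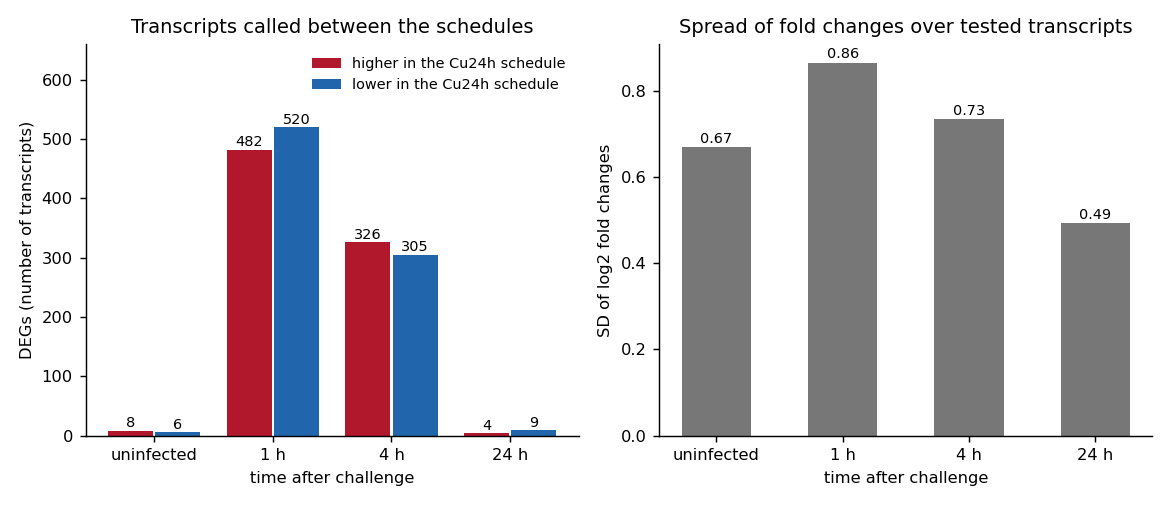
Number of DEGs between the copper schedules (left, red upregulated and blue downregulated in the Cu24h schedule) and SD of the log2 fold changes over all tested transcripts (right), without challenge and 1, 4 and 24 h after it, 6 against 6 fish each. The DEGs number 1002 at 1 h, 631 at 4 h and 13 at 24 h, and the SD is lowest at 24 h.

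The change over time was itself tested on 24 libraries. In both schedules the time since copper rose along with the time after challenge, and these cannot be told apart in such a change. The difference between the schedules at 24 h departed from that at 1 h in 250 of 10546 transcripts (2.37%). The difference of the Cu24h minus the Cu0h schedule rose from 1 h to 24 h in 155 (1.47%) and fell in 95 (0.901%). A rise can also be a negative difference at 1 h that faded, and a fall a positive one that faded. Leaving out Cu0h-1h replicate 2, Cu0h-1h replicate 4 or Cu24h-1h replicate 4 gave counts of 162, 154 and 156 in place of 250. Relative to 4 h the schedule difference departed in 111 of 10685 transcripts (1.04%), with a rise in 54 (0.505%) and a fall in 57 (0.533%). This count was 65 to 73 without Cu0h-4h replicate 5, Cu0h-24h replicate 3, Cu24h-4h replicate 1, Cu24h-24h replicate 1 or Cu24h-24h replicate 2.

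The transcripts called at the earlier times were followed to 24 h. Of the 1002 DEGs at 1 h, 961 were tested at 24 h, and 746 of these (77.6%) had a fold change in the same direction as at 1 h, beside 62.0% of all 6533 transcripts tested at both times. Their median fold change in the 1 h direction was 1.43 at 1 h, 0.80 at 4 h and 0.30 at 24 h on the log2 scale, and that of all transcripts tested at both 1 h and 24 h was 0.12 at 24 h. The list was chosen on its 1 h values, all above 1 in size, so the step down from 1.43 is not a change over time alone. Read back at 1 h, the DEGs of 4 h likewise had a median of 1.09 beside 1.38 at 4 h. At 24 h, 52 of the 961 (5.41%) were beyond 2-fold in the same direction, beside 206 of all 6533 (3.15%). Among the 961, 6 were DEGs at 24 h in the same direction and 1 in the opposite direction, and among all 6533 these counts were 9 and 3. At 4 h by comparison, 268 of the 976 tested were DEGs in the same direction and 4 in the opposite direction, beside 519 and 44 of all 6547 tested at 1 h and 4 h.

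Of the 631 DEGs of 4 h, 589 were tested at 24 h, with 424 (72.0%) in the same direction beside 59.4% of all 7128. Their median at 24 h was 0.28 in the 4 h direction, beside 0.09 over all, and 3 were DEGs in the same and 1 in the opposite direction, beside 4 and 5 of all 7128. In both lists the transcripts that had been higher in the Cu24h schedule had a median log2 fold change of 0.37 in that direction at 24 h, and those that had been lower 0.23 from 1 h and 0.22 from 4 h. Taken over transcripts, which do not count as independent replicates, the fold changes at 24 h correlated with those at 1 h by r = 0.330 (6533 transcripts) and with those at 4 h by r = 0.250 (7128 transcripts). Fold changes at 1 h and at 4 h correlated by r = 0.573 (6547 transcripts). The uninfected contrast correlated with that at 24 h by r = 0.0384 over 6290 transcripts. Of its 14 DEGs, 12 were tested at 24 h, 7 had the same direction and 0 were DEGs. Over all 6290 the same direction was found for 3140 (49.9%), and 4 were DEGs at 24 h in the same and 4 in the opposite direction.

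**Figure D5:**
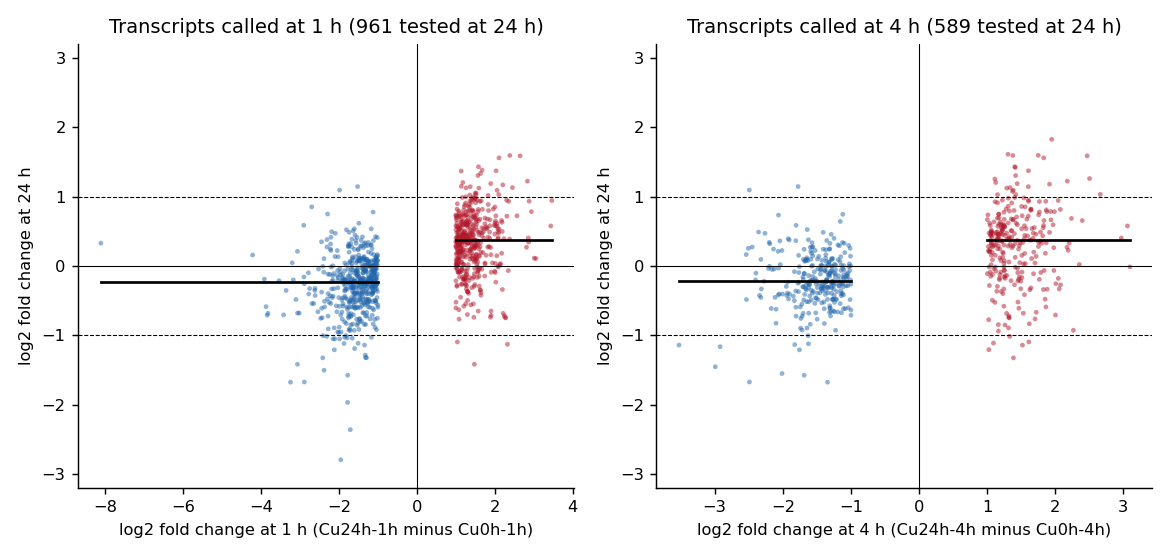
Log2 fold change at 24 h (vertical axis) against that at 1 h (left) or 4 h (right, horizontal axis) for the transcripts called at the earlier time, red where higher and blue where lower in the Cu24h schedule. Thick lines mark the median at 24 h of each color, 0.37 for the red and -0.23 or -0.22 for the blue points, and dashed lines mark 2-fold at 24 h.

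Read in the other direction, 12 of the 13 DEGs of 24 h had been tested at 1 h. At 1 h, 9 of the 12 had the same sign as at 24 h, 6 were DEGs in the same direction and 1 in the opposite direction, beside 14.4% of all transcripts called in either direction. At 4 h, 9 were tested, 4 with the same and 5 with the opposite sign, and 3 were DEGs in the same and 1 in the opposite direction, beside 8.1% of all transcripts called in either direction. The upregulated transcript at 178 CPM in Cu24h-24h was a DEG at all 3 times, with log2 fold changes of 2.84 at 1 h, 2.18 at 4 h and 1.22 at 24 h. The downregulated transcript at 78.9 CPM in Cu24h-24h had changed side, with 1.48 at 1 h (FDR 0.00633), 0.80 at 4 h (FDR 0.0467) and -1.42 at 24 h (FDR 0.00460). Another downregulated transcript changed side at 4 h alone, with -2.42 at 1 h, 1.38 at 4 h and -1.33 at 24 h, each past the threshold. These 3 transcripts were chosen after their values were seen.

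The difference between the responses, that is (Cu24h-24h minus Cu24h) minus (Cu0h-24h minus Cu0h), takes each schedule's uninfected fish into account and shares the 24 h libraries with the direct comparison. The Cu0h fish were sampled right after copper and the Cu24h fish 24 h later, but the Cu0h-24h and Cu24h-24h fish 24 h and 48 h past its start. Each response therefore also holds the time since copper, which cannot be told apart from challenge here. The difference between the responses passed the thresholds in 28 of 10694 transcripts (0.262%). Of these, 15 had a higher response in the Cu24h schedule (0.14%) and 13 a lower one (0.122%). An unadjusted edgeR p below 0.05 was found for 1153 transcripts (10.8%). Among the named transcripts, ENSIPUT00000016230 had a log2 difference of 4.29 (SE 0.75, edgeR FDR 0.00651) beside its direct fold change of 2.20. For ENSIPUT00000000694 it was 1.75 (SE 0.58, FDR 0.220), for ENSIPUT00000026052 -1.87 (SE 0.72, FDR 0.313) and for ENSIPUT00000035581 -1.16 (SE 0.75, FDR 0.615). The uninfected part of the value of ENSIPUT00000016230 rested on few counts, 14 over the Cu24h fish and 45 over the Cu0h fish (9.01 ± 5.53 CPM). This transcript did not pass the filter in the uninfected comparison. The uninfected fish used here are those split in detected transcripts, as given above. The count of 28 moved over 1.5-fold when any of 19 of the 24 fish was left out, from 2 to 61, and it was 0 with the older edgeR method, which gave 852 transcripts with an unadjusted p below 0.05, and 656 with limma-voom.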

How the data were processed

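Gill poly(A) RNA of 54 fish was sequenced, and fish were grouped by their deposited labels. Each fish has 1 file of effective counts, which are estimated counts per Ensembl transcript that the authors rounded to whole numbers and deposited without normalization. The submitters' processing notes name Trim Galore 0.5.0, Bowtie2 2.3.4.3, eXpress 1.5.1 and DESeq2 1.24.0, whereas the study's methods describe Trimmomatic, STAR, HTSeq and edgeR. Which route made these files is inferred from their name and format, and the build and annotation are not given in the sources used here. How reads were divided between similar transcripts affects every value and could not be checked. Some transcripts called at 1 h or 4 h had fold changes identical to those of another, such as 1.30 at 1 h with 0.596 at 24 h. Each counts as a separate DEG, and whether they share reads was not tested.

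In R 4.3.3, the 12 libraries of a comparison passed through filterByExpr (count of at least 10, total of at least 15) and TMM scaling before the quasi-likelihood F-test of edgeR 4.0.16 (legacy=FALSE) with Benjamini-Hochberg adjustment, FDR below 0.05 and log2 fold change above 1 in size. The tests of change and of the responses used 24 libraries. SEs were approximated from the fold change and F. CPM used TMM over 54 libraries, log2 CPM a prior count of 2. Intervals came from limma 3.58.1. Values per fish were compared by exact two-sided permutation tests adjusted over 4 values. Equal depth was 352013 counts, by random thinning. Alternatives included DESeq2 1.42.0's size factors and Wald test. The procedure was tested on simulated data. Of 30 pairs of fish of the same 24 h group, none differed by as little as sampling noise (smallest chi-square per transcript 5.37).

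The comparison, the alternatives and the rule for named transcripts (DEGs without overlap, 20 CPM or more on average, 2 largest in each direction) were chosen with earlier results of these data known. Lists of genes and cell type markers were not used, as 0 transcripts carry names.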

Additional observations from a re-analysis of the deposited data

Results flagged for a closer look

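In Cu0h-24h replicate 6, 13633 transcripts were detected at equal depth, and its mean correlation with the other fish of its group was 0.769. In both values the gap to the next fish (16237 transcripts and 0.806) exceeded the limit of Dixon's test for 6 samples. Dixon's test was applied to 18 sets of 6 fish and about 1 in 20 passes by chance. The part of this fish in the DEG count was measured by leaving it out, which gave 28 DEGs in place of 13 and kept all 13.

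Differences between schedules, or between times, were themselves tested in 3 cases. The responses of the schedules at 24 h, which also hold the time since copper, differed in 28 transcripts. Single fish moved this count from 2 to 61. The schedule difference changed from 1 h to 24 h in 250 transcripts and from 4 h to 24 h in 111 transcripts.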

How the results depend on the processing

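For the 24 h comparison, DESeq2's size factors gave the same 13 DEGs, and thinning to the smallest of the 12 libraries gave 10. The count was 54 with DESeq2's Wald test, 255 without the filter and 7 with limma-voom. It was 6 with the older edgeR method, 4 with all 9 groups in 1 fit and 1 at equal depth over all libraries. Only 5 of the 7 limma-voom calls and 3 of the 4 calls with all 9 groups were among the 13 DEGs. The 255 included 151 transcripts the filter removes, at a median of 5.46 CPM, and 75 of these had a count in at most 1 fish of a group. Leave-one-out gave 2 to 28. The difference of responses gave 56 with the Wald test, 90 without the filter, 0 with the older edgeR method (852 with unadjusted p below 0.05), 656 with limma-voom, 133 with all groups in 1 fit and 2 to 61 in leave-one-out. Cu24h against Cu0h gave 65 with the Wald test, 147 without the filter, 439 with all groups and 0 to 43 in leave-one-out (with 14 by edgeR on all fish and 672 with unadjusted p below 0.05). At 1 h the range over all alternatives was 699 to 1359, at 4 h it was 400 to 1122, with 1122 without the filter, 400 to 731 in leave-one-out and 808 to 1253 in that of 1 h. The change from 1 h gave 384 with the Wald test, 151 with the older method, 113 with all groups and 154 to 350 in leave-one-out, and that from 4 h gave 214, 52, 90 and 65 to 144, and 318 without the filter.

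The replicate numbers were not shown to pair fish, as 0 of 6 same-number correlations exceeded 0.1 and 4 of 12 fish correlated best with their own number. With the replicate block the counts were 6 at 24 h, 7 for the difference of responses, 31 for Cu24h against Cu0h, 921 at 1 h, 486 at 4 h, and 184 and 103 for the changes from 1 h and 4 h.

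All 4 named transcripts kept their direction in every fit of the 24 h comparison that tested them. ENSIPUT00000035581 lost its call in 1 of 20 alternatives and ENSIPUT00000026052 in 3 of 20. ENSIPUT00000016230 lost it in 9 of 20 (FDR up to 0.147) and ENSIPUT00000000694 in 9 of 21 (FDR up to 0.119). With limma-voom all 4 lost their call, at FDRs of 0.0688 to 0.146. At equal depth over all libraries only ENSIPUT00000000694 was tested, and its edgeR FDR of 0.0593 did not pass. The difference in detected transcripts changed sign with a minimum of 5 counts (-119) and in leave-one-out (-399 to 375), always with an adjusted exact permutation p of 0.234 or more. The difference in distance to the Control mean ranged from -0.0996 to -0.0689 in leave-one-out. The tests of change over time, the fits at the depth of the smallest of all libraries, the thinning at 1 h, 4 h and without challenge, the intervals and the followed medians were added after seeing the data. Where no cause is named, the cause was not tested. Few intervals lay within 2-fold at the lowest levels, and the part of depth in this was not tested.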
